A study of Mus musculus with 24 samples.

Results

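Mammary glands of 18-month-old mice were compared between a line carrying an inducible CYP19A1 transgene and a line carrying an inducible Esr1 transgene. The 6 libraries, 3 per line, were taken from a series of 24 by their labels. The CYP19A1 group carried MMTV-rtTA/tet-op-CYP19A1 and the Esr1 group MMTV-rtTA/tet-op-Esr1. Both were 18 months old, had 6 months of transgene induction (the sample descriptions say Doxy) and had received neither drug of the series. What the groups share is therefore the rtTA activator, the induction and the age. In both, the MMTV promoter drives rtTA, which limits transgene activity to cells that use that promoter. No mouse without a transgene was among the samples, so a difference cannot be assigned to either transgene. Each sample of a line has its own animal number and is labelled a biological replicate, while the strain is not stated in the labels. The remaining 18 libraries, 9 per line, came from 20-month-old mice of the same genotypes after 8 months of induction. The 6 given neither drug, called untreated here, carry PLA in their descriptions, a tag that is not explained there. The others had pellets releasing 25 mg of tamoxifen or 2.5 mg of letrozole within 60 days.

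Esr1 encodes oestrogen receptor alpha, a nuclear receptor that binds oestradiol and switches on target genes such as Pgr, Greb1 and Areg. CYP19A1 encodes aromatase, the enzyme that converts androgens to oestrogens. In the mammary gland the receptor is found in hormone-sensing luminal cells, which signal to their neighbours through secreted factors. The gland also holds basal and milk-producing epithelial cells, adipocytes, blood vessels and immune cells, so whole-tissue RNA mixes them. In such bulk samples, fewer cells of a type and less RNA per cell cannot be told apart.

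Of 19325 genes tested, 262 (1.36%) differed between the lines at 18 months by limma with a Benjamini-Hochberg adjusted p under 0.05. Levels are given in TPM, a length-scaled share of all transcripts, and differences are CYP19A1 minus Esr1 on the log2(TPM + 1) scale with the standard error of the fit, which understates the change of low genes. 173 genes (0.895%) were higher in the CYP19A1 line and 89 (0.461%) lower, and the 3 libraries of one line did not overlap the 3 of the other for any of the 262. Over all genes tested, 12.4% did not overlap and 8.38% had an unadjusted p under 0.05. When the values were rescaled without the most abundant RNAs and the muscle genes, 165 were higher and 171 lower. That fit tested 23964 genes, so scaling and the genes tested changed together; of its calls, 150 higher and 147 lower were among 19223 genes tested in both. Without CYP19A1 mouse 1 the higher calls numbered 109. Lower calls numbered 55 without Esr1 mouse 2, 55 without Esr1 mouse 3 and 58 without CYP19A1 mouse 3.

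Acta1, the skeletal muscle actin, measures how much muscle a gland sample held, and it differed widely within both groups. Its level was 852.71, 1541.12 and 6.51 TPM in CYP19A1 mice 1 to 3, and 38.34, 1986.06 and 2550.99 TPM in Esr1 mice 1 to 3. CYP19A1 mouse 3 and Esr1 mouse 1 were therefore far below the other 4 libraries, and below all 18 libraries from 20 months, which ran from 1049.36 to 7084.55 TPM. The groups overlapped, and the difference of -1.44 gave p = 0.5 by a two-sided exact permutation test, in which 3 against 3 cannot go below 0.1. The 18 skeletal muscle genes of the list summed to 0.00611% of TPM in CYP19A1 mouse 3 and 0.0236% in Esr1 mouse 1, against 0.512 to 1.59% in the other 4. None of the 18 passed, 17 were below zero, and their median was -1.41, or -1.03 without those 2 libraries.

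**Figure D1:**
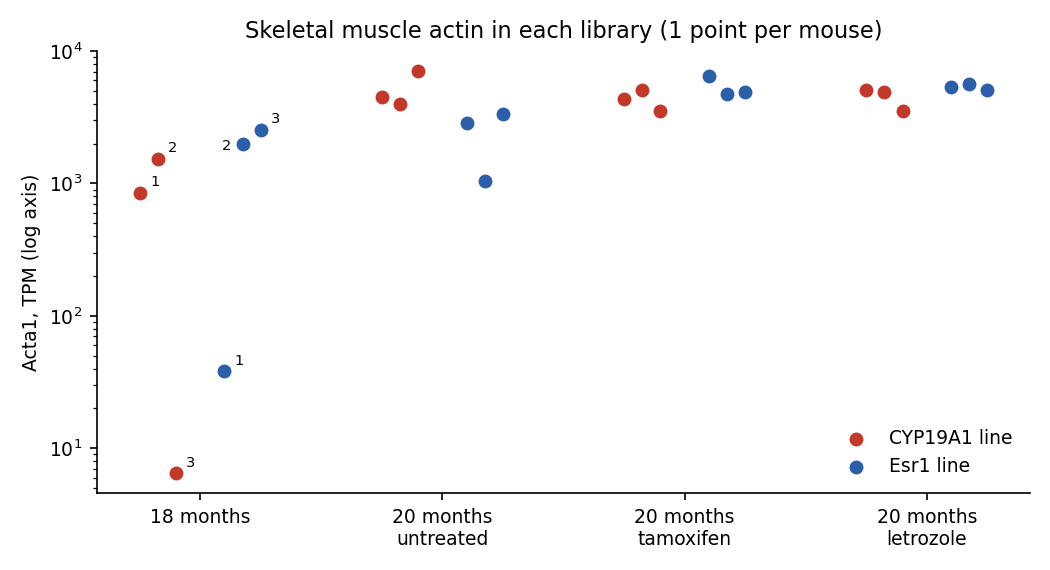
Acta1 in TPM (log axis) in each of the 24 libraries, 1 point per mouse, by age and drug, with the CYP19A1 line in red and the Esr1 line in blue; the 18-month points carry their replicate numbers. CYP19A1 replicate 3 (6.51 TPM) and Esr1 replicate 1 (38.34 TPM) lie below every other library.

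Epithelial markers of the labelled tissue were present in all 6 libraries. The 12 pan-epithelial genes, among them Epcam and Krt19, summed to 276.95 to 491.37 TPM in the CYP19A1 libraries and 259.53 to 521.92 TPM in the Esr1 libraries. Both low values belonged to the libraries with the least muscle RNA. None of the 12 passed, and their median difference was -0.02, beside 0.06 for all genes tested. In the 6 libraries 15404 to 17684 genes reached 1 TPM. 7SL RNA took 28.0 to 38.8% of all TPM and protein-coding genes 31.4 to 39.6%.

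The 2 genes named by the transgenes did not separate the lines. Esr1 was 13.15, 12.18 and 17.74 TPM in the CYP19A1 mice and 14.21, 14.78 and 14.28 TPM in the Esr1 mice. The ranges overlapped, and the difference of -0.02 ± 0.21 gave p = 1.0 by the exact permutation test. Mouse Cyp19a1 was 0.01, 0.03 and 0.27 TPM in the CYP19A1 line and 0, 0 and 0.15 TPM in the Esr1 line, below the level needed for a test. Human CYP19A1 itself was not analysed here, so the CYP19A1 label was not checked. The Esr1 row showed no rise in the Esr1 line. Whether transgene reads were counted in that row is not stated in the labels, so it does not check the Esr1 label either.

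Genes that oestrogen receptor alpha is known to drive did not pass. Of the 15 oestrogen response genes, 14 were tested and none passed, with 9 above zero and a median of 0.36. That median was 0.03 without the 2 libraries of least muscle RNA and -0.26 in the mean of the 20-month comparisons. Pgr, the progesterone receptor, was 7.27, 3.26 and 11.64 TPM against 2.69, 4.81 and 4.26 TPM (0.66 ± 0.39, limma adjusted p = 0.783). Greb1, a receptor cofactor, was under 1 TPM in all 6 libraries. Areg, an epidermal growth factor receptor ligand, ran from 4.50 to 16.89 TPM against 5.12 to 8.94 TPM. Stc2, a secreted glycoprotein, came nearest, at 15.57, 8.90 and 19.71 TPM against 5.75, 8.86 and 6.64 TPM (0.91 ± 0.34, limma adjusted p = 0.323). Its lowest CYP19A1 library lay only just above its highest Esr1 library. None of the 10 tested genes of oestrogen synthesis and inactivation passed, nor did any of the 13 hormone-sensing luminal genes, of which 12 were above zero. The full oestrogen response element GGTCANNNTGACC, searched on both strands, was in 0.07% of all promoters in the RefSeq table and in none of the 97 called genes that had a promoter there. It was in 1 of 14721 promoters of tested genes. A pattern so rare was unlikely to occur among 97 genes, so its absence decides nothing. The median of the hormone-sensing genes was 0.43 and fell to 0.04 without the 2 libraries of least muscle RNA.

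The clearest block of change was a run of neighbouring genes on chromosome 2. Between 175275125 and 177087805 (a span of 1.81 Mb, RefSeq GRCm38.p6, which is the mm10 build), 15 of 21 tested genes passed, 14 of them higher in the CYP19A1 line. A run was defined, after the calls were known, as at least 4 called genes with gaps of no more than 500 kb. The named members belong to a family of Zfp genes, whose KRAB zinc finger proteins bind DNA and are known for silencing transposable elements. Zfp973 was 19.17, 16.53 and 17.00 TPM in the CYP19A1 mice and 1.23, 1.33 and 1.37 TPM in the Esr1 mice, a difference of 3.00 ± 0.37 (limma adjusted p = 5.18e-05). Zfp966 was 17.12, 15.05 and 15.06 TPM against 3.20, 1.52 and 1.89 TPM, a difference of 2.42 ± 0.35 (limma adjusted p = 0.000363). In both genes every CYP19A1 library stood far above every Esr1 library, and both calls held under all 16 alternatives tried.

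The predicted gene Gm14305 had a larger difference than either, at 15.92, 13.91 and 13.16 TPM against 0.43, 0 and 0.28 TPM (3.64 ± 0.49, limma adjusted p = 0.000168). Gm14295 differed by 3.20 ± 0.42 and Gm14296 by 3.01 ± 0.35, and the calls on these 3 genes also held under all 16 alternatives. Zfp967 was 23.26, 20.42 and 20.17 TPM against 9.18, 4.65 and 6.90 TPM (1.53 ± 0.21, limma adjusted p = 0.000163). Zfp965 differed by 1.19 ± 0.22 and Zfp968 by 1.66 ± 0.37. The predicted genes Gm4724 and Gm14308 were listed at 0 in all 3 Esr1 libraries and ran from 4.34 to 7.05 TPM and 4.15 to 5.42 TPM in the CYP19A1 libraries. Gm14401 at the end of the run went the other way, at 0.70, 0.65 and 0.49 TPM against 1.79, 2.15 and 2.08 TPM (-0.90 ± 0.21, limma adjusted p = 0.0341). The call on Gm14401 was lost without any one of the 6 libraries, and that on Zfp968 without any one but Esr1 mouse 1, with limma adjusted p up to 0.189 and 0.178 over the alternatives. Gm14440 lost its call under 12 alternatives, among them the omission of any one library (limma adjusted p up to 0.231). The predicted gene 2210418O10Rik lost it under 7 (limma adjusted p up to 0.241). All 15 had the same sign and passed in the mean of the 20-month comparisons too. These genes are close copies of each other, so the split of reads among them is uncertain. Of the 6 that did not pass, Gm6710 and Gm14421 overlapped between the lines at levels above 5 TPM.

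**Figure D2:**
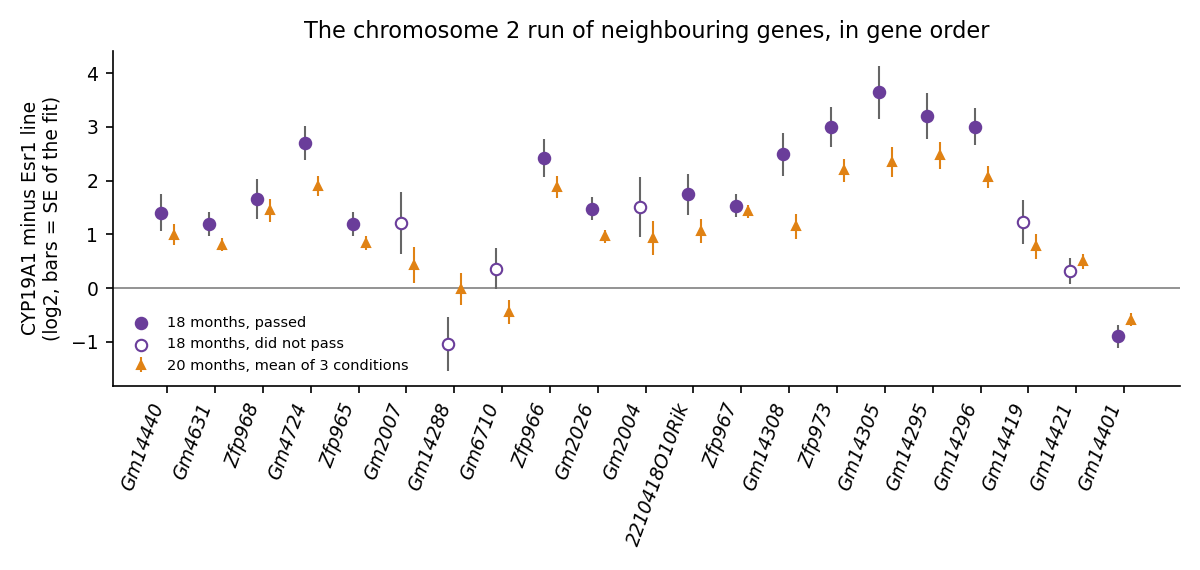
Difference between the lines (CYP19A1 minus Esr1, log2(TPM + 1), bars are standard errors of the fit) for the 21 tested genes of the chromosome 2 run in gene order, at 18 months (circles, filled where the gene passed) and as the mean of the 3 conditions at 20 months (triangles). 14 filled circles lie above zero and 1, Gm14401, below.

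The promoters of the run show how alike its members are. Over 13 of its genes with a promoter in the RefSeq table (250 bases before to 50 after the start), the 78 pairs had a median identity of 76.2% in a global alignment, from 49.0 to 100%, with 33 pairs over 80%. Identity was counted over the full alignment, gaps at the ends included, so an offset between annotated starts lowers it. Zfp966 (chr2:175931051-175931350, minus strand) and Zfp973 (chr2:176670272-176670571, plus strand) are printed as the members with a Zfp symbol and the largest differences. They were 83.7% identical by this measure, but the printed stretches are nearly the same sequence shifted against each other, so the value mainly reflects that offset. No base is in capitals, since none of the 3 motifs given in the text was found in either.
Zfp966: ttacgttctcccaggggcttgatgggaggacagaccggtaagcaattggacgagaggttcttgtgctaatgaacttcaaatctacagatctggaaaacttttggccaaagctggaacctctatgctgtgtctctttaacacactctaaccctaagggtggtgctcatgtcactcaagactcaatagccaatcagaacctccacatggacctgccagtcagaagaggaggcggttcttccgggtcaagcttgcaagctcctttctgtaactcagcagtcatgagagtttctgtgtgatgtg
Zfp973: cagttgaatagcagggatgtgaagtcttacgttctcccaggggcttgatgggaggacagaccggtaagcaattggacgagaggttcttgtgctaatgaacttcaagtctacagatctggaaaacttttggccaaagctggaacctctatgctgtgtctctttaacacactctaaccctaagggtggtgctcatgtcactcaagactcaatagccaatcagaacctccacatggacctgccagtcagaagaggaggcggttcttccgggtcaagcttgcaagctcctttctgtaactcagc

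A second cluster of called neighbours was the Ifi200 family on chromosome 1, from 173566280 to 174031755. These genes encode interferon-inducible proteins, several of which sense DNA or bind it. Of 11 tested genes in the interval 6 passed, and they went both ways: Ifi202b, Ifi208 and Ifi203-ps were higher in the CYP19A1 line and Mndal, Ifi205 and Ifi213 lower. All 6 kept their sign and passed in the mean of the 20-month comparisons.

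Promoters of the 4 members that carry the contrast are printed with the matched letters in capitals. A pair of patterns was searched on both strands: GAAANNGAAA, an interferon-stimulated response element, and TTCNNNGAA, a gamma-activated site bound by STAT proteins. The first was in 3.44% of 32851 promoters of this length and in 10 of 14 promoters of the Ifi200 family (9 of 12 genes). Ifi202b, with the largest difference, was not among them, and was the only gene of the 12 with the second pattern, which 8.3% of all promoters hold. Ifi202b is at chr1:173982795-173983094 (minus strand), Ifi208 at chr1:173673415-173673714 (plus strand), Mndal at chr1:173880138-173880437 (minus strand) and Ifi205 at chr1:174031706-174032005 (minus strand). Ifi205 holds 2 matches, one of them on the opposite strand. The reference strain need not be that of these mice.
Ifi202b: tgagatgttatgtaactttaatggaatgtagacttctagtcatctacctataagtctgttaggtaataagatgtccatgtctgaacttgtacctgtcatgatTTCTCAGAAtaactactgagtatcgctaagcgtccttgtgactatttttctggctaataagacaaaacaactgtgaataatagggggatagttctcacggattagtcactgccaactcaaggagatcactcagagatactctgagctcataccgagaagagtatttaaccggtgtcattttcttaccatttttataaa
Ifi208: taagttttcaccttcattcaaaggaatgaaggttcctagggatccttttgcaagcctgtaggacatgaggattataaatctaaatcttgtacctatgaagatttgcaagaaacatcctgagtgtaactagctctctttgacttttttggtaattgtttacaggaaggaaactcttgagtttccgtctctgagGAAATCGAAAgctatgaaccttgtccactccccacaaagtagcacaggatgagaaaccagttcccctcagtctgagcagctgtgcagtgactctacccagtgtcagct
Mndal: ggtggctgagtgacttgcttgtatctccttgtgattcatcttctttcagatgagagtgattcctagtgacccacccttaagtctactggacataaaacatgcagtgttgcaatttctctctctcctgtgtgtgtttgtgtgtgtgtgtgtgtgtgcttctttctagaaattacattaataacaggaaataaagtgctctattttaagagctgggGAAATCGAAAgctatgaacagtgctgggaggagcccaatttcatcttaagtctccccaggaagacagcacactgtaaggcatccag
Ifi205: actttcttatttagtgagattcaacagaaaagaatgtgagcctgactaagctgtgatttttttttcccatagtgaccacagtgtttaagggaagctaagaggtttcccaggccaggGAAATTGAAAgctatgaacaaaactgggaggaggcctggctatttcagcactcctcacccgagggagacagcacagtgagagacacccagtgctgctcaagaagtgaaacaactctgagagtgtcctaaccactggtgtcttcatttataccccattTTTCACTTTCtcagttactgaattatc

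Ifi202b was 28.35, 17.15 and 27.92 TPM in the CYP19A1 mice and 0.97, 0.65 and 0.51 TPM in the Esr1 mice (3.87 ± 0.20, limma adjusted p = 4.42e-11). Mndal, whose product is a nuclear protein of the same family, was 6.73, 4.36 and 5.23 TPM against 13.76, 28.09 and 34.29 TPM (-1.96 ± 0.33, limma adjusted p = 0.00185). Ifi205 was 10.24, 7.48 and 10.74 TPM against 20.32, 31.29 and 30.73 TPM (-1.43 ± 0.29, limma adjusted p = 0.0105). In Mndal and Ifi205 Esr1 mouse 1, one of the libraries with little muscle RNA, was the lowest of its group but still above all CYP19A1 mice. Ifi213 was low in both lines, at most 0.21 TPM in the CYP19A1 mice and 1.08, 1.87 and 3.54 TPM in the Esr1 mice. Ifi208 was 1.95, 1.13 and 1.09 TPM against 0.28, 0.50 and 0.36 TPM (0.78 ± 0.15, limma adjusted p = 0.00804).

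The other family members did not pass. Ifi204 was 12.59, 8.73 and 13.07 TPM against 11.24, 14.58 and 14.65 TPM, and Ifi203 also overlapped. Ifi207, Ifi209 and Ifi211 did not overlap between the lines but did not pass either, with differences of -0.38 ± 0.31, -0.57 ± 0.23 and 0.50 ± 0.28. Ifi203-ps lost its call under 6 of the 16 alternatives, and Ifi205 and Ifi208 under 3 each. Ifi205 did not pass without Esr1 mouse 2, Esr1 mouse 3 or CYP19A1 mouse 2, and Ifi208 did not pass without CYP19A1 mouse 1, with limma adjusted p up to 0.0711 and 0.224 over the alternatives. Ifi203-ps did not pass without Esr1 mouse 1 or 2 or CYP19A1 mouse 1 or 3, with limma adjusted p up to 0.276. The family's likeness makes the assignment of reads between members uncertain. The 18 interferon-stimulated genes outside the family did not move with it: none passed, 11 were above zero and their median was 0.09. Gbp6, an interferon-inducible guanylate-binding GTPase outside that list, was higher, at 22.03, 9.07 and 11.83 TPM against 1.42, 1.65 and 2.44 TPM (2.36 ± 0.35, limma adjusted p = 0.000439).

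Further single genes passed while the listed partners of their pathway did not. Gchfr, the feedback regulator of GTP cyclohydrolase in tetrahydrobiopterin synthesis, was 8.48, 10.05 and 12.47 TPM in the CYP19A1 mice and 0.05, 0.22 and 0.36 TPM in the Esr1 mice (3.22 ± 0.20, limma adjusted p = 6.29e-10). Of the 8 genes of that pathway only Gchfr passed. Gch1, which encodes the cyclohydrolase itself, differed by 0.08 ± 0.16, and Spr and Qdpr, which make and recycle the cofactor, by 0.41 ± 0.16 and 0.31 ± 0.16 without overlap. Kpna2, an importin alpha that carries proteins into the nucleus, was 2.26, 2.09 and 1.15 TPM against 12.96, 15.50 and 23.94 TPM (-2.68 ± 0.21, limma adjusted p = 3.54e-08). The other 8 tested import receptors did not pass, and their differences lay between -0.14 and 0.21.

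Psmc3ip, a cofactor of meiotic recombinases, was 11.13, 9.79 and 10.79 TPM against 1.59, 1.68 and 2.38 TPM (2.01 ± 0.17, limma adjusted p = 1.24e-07). Hjurp, the chaperone that loads the centromeric histone CENP-A, was 54.51, 37.67 and 33.74 TPM against 7.39, 9.64 and 13.40 TPM (1.95 ± 0.25, limma adjusted p = 6.1e-05). Both are tied to dividing cells, but none of the 20 proliferation genes passed and 12 of them were below zero. Hspa8, the constitutive Hsc70 chaperone, was 1281.62, 1212.13 and 656.71 TPM against 233.83, 261.99 and 332.57 TPM (1.88 ± 0.28, limma adjusted p = 0.000448). CYP19A1 mouse 3 was the lowest of its group and still above every Esr1 mouse. Gas5, a noncoding host of small nucleolar RNAs, was 215.54, 93.48 and 144.03 TPM against 42.61, 52.49 and 66.38 TPM (1.41 ± 0.27, limma adjusted p = 0.00545), and this call was lost without CYP19A1 mouse 1. The host genes Snhg1, Snhg12, Snhg8 and Snhg5, looked up after the calls were seen, did not pass. They differed by 0.16, 0.23, 0.02 and 0.16.

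The Dynlt1 genes on chromosome 17 encode near-identical dynein light chains and were split. Dynlt1b was 66.67, 80.28 and 58.66 TPM against 13.47, 19.31 and 24.66 TPM (1.81 ± 0.29, limma adjusted p = 0.000828). Dynlt1a was 3.32, 2.39 and 3.01 TPM against 0.70, 0.91 and 1.15 TPM and passed as well. Dynlt1f was 27.03, 26.57 and 20.59 TPM against 25.21, 24.82 and 23.23 TPM, with the groups interleaved, and Dynlt1c did not pass. Which copy the reads came from is uncertain for this family.

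**Figure D3:**
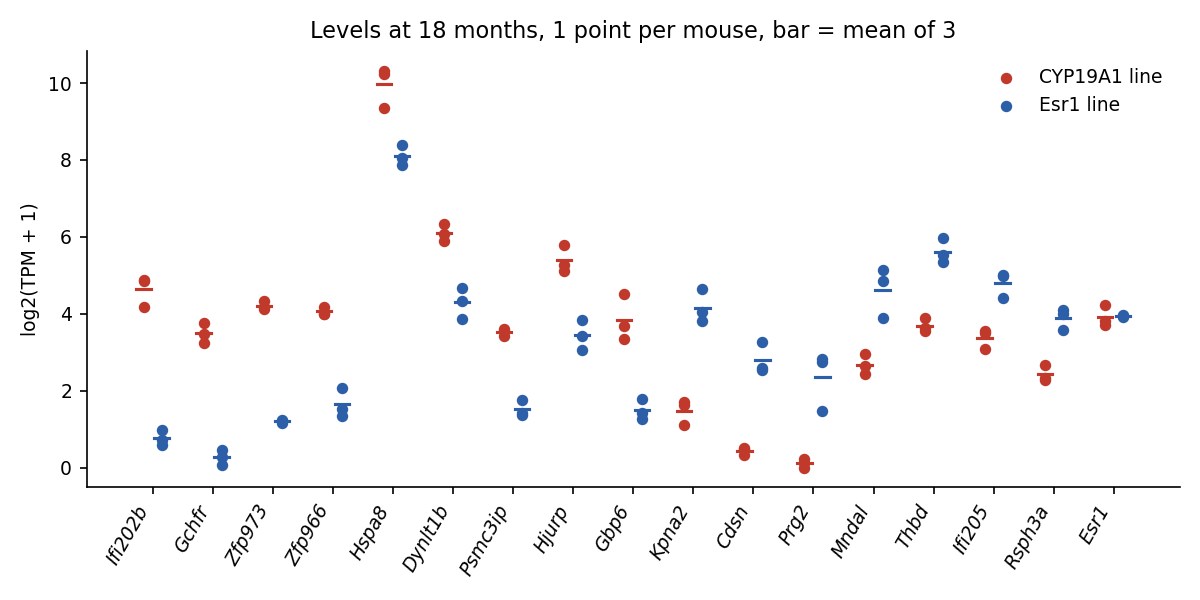
Levels at 18 months as log2(TPM + 1), 1 point per mouse with the mean of 3 as a bar, for 16 genes that passed and for Esr1, with the CYP19A1 line in red and the Esr1 line in blue. The 3 points of one line do not overlap the 3 of the other for any gene but Esr1.

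Genes lower in the CYP19A1 line included an epidermal gene, eosinophil genes and an endothelial gene. Cdsn, corneodesmosin of the outer epidermis, was 0.25, 0.40 and 0.43 TPM in the CYP19A1 mice and 8.53, 5.06 and 4.85 TPM in the Esr1 mice (-2.36 ± 0.37, limma adjusted p = 0.000683). Other cornified epithelium genes were close to absent: Krt1, Lor, Flg and Ivl were at most 0.34 TPM in every library, and of 14 genes only 4 were tested. Prg2, an eosinophil granule protein, was 0.17, 0.08 and 0 TPM against 1.79, 6.02 and 5.71 TPM (-2.23 ± 0.38, limma adjusted p = 0.00182). Ear2, an eosinophil-associated ribonuclease, was 2.64, 1.58 and 3.01 TPM against 17.56, 11.19 and 5.83 TPM (-1.79 ± 0.44, limma adjusted p = 0.0482). The further eosinophil genes Ear1, Ear6, Epx, Prg3, Ccr3, Siglecf and Il5ra, looked up after these values were seen, were at most 0.50 TPM in every library. Ear1 was 0.29, 0.22 and 0.07 TPM in the CYP19A1 mice and listed at 0 in the Esr1 mice, the other direction from Ear2.

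Thbd, thrombomodulin, an anticoagulant receptor of the vessel wall, was 11.46, 10.67 and 13.72 TPM against 61.29, 45.20 and 39.88 TPM (-1.93 ± 0.39, limma adjusted p = 0.0105). It was the one endothelial gene of 13 to pass, and it lost its call without Esr1 mouse 1, CYP19A1 mouse 1 or CYP19A1 mouse 2, with adjusted p up to 0.10. The rest of the list pointed the other way without passing: 11 of 13 were above zero, 7 were higher without overlap (8.86% of all genes were), and the median was 0.40. Kdr, the main VEGF receptor, was 28.36, 25.81 and 29.86 TPM against 12.91, 15.90 and 18.84 TPM (0.79 ± 0.22, limma adjusted p = 0.0954). Nos3, the endothelial nitric oxide synthase, lay outside the list and passed, at 7.86, 7.67 and 10.95 TPM against 4.68, 3.44 and 3.70 TPM (0.98 ± 0.21, limma adjusted p = 0.0177). That call was lost without Esr1 mouse 2, Esr1 mouse 3 or CYP19A1 mouse 3, with limma adjusted p up to 0.112 over the alternatives.

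Several detoxifying enzymes differed. Ugt1a9, Ugt1a8 and Ugt1a1, which conjugate bilirubin, steroids and drugs to glucuronic acid, were lower in the CYP19A1 line. Ugt1a9 was at most 0.04 TPM there and 3.98, 2.12 and 1.93 TPM in the Esr1 line (-1.80 ± 0.28, limma adjusted p = 0.000639). Members of this locus share their last exons, which makes the split among them uncertain, and the more abundant Ugt1a6a did not pass (-0.80 ± 0.35, limma adjusted p = 0.506). Ugt1a9, Ugt1a8 and Ugt1a1 lay with Gm15368 and Hjurp in another run on chromosome 1, as defined above. In its 0.207 Mb 5 of 16 tested genes passed, with Hjurp alone higher, and all 5 passed in the mean of the 20-month comparisons. Mgst2, a microsomal glutathione transferase, was 5.03, 6.21 and 13.03 TPM against 2.51, 0.99 and 1.15 TPM (1.78 ± 0.34, limma adjusted p = 0.00564). Gstp2 was 6.64, 2.63 and 1.39 TPM against 6.90, 16.17 and 16.32 TPM (-1.72 ± 0.39, limma adjusted p = 0.0302). Its highest CYP19A1 library lay only just below its lowest Esr1 library. Gstp1, its abundant neighbour, was 94.31, 93.15 and 89.04 TPM against 100.22, 91.39 and 103.08 TPM.

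The other genes taken by the naming rule are given by their differences. Vsig2, an immunoglobulin-domain membrane protein, differed by 2.00 ± 0.33. Rsph3a, a radial spoke protein of cilia, differed by -1.46 ± 0.20, and Cilp, a matrix protein, by -1.63 ± 0.31. Klk1b22, a kallikrein, was 2.85, 3.39 and 3.61 TPM in the Esr1 libraries and listed at 0 in the 3 of the CYP19A1 line (limma adjusted p = 0.00131). Rprl3, an RNase P RNA-like gene, was 301.65, 184.62 and 128.33 TPM against 46.05, 52.54 and 24.61 TPM. Slc5a7, the choline transporter, was at most 0.08 TPM against 3.59, 1.39 and 1.32 TPM. Hist1h4n, Hist1h2bl and Hist1h2ao are replication histones, and their near-identical copies and missing poly(A) tails make single rows uncertain. Of the 30 top genes 14 lost their call under at least 1 alternative. Ear2, Slc5a7, Hist1h4n and Hist1h2ao, the 4 that lost it most often, did so without Esr1 mouse 1 or 2 and without CYP19A1 mouse 1 or 2. The same held for all but Ear2 without Esr1 mouse 3, and for Ear2 and Slc5a7 without CYP19A1 mouse 3. Gstp2 did so without Esr1 mouse 2 or 3 or CYP19A1 mouse 2 or 3, and Cilp without Esr1 mouse 2. Without the 2 libraries of least muscle RNA, Rpl34 and Vsig2 did not pass, with limma adjusted p of 0.0509 and 0.0582. A fit of the 6 libraries alone ended the calls on Mndal (limma adjusted p = 0.0545), Rprl3 (0.0631), Hist1h2bl (0.0762) and Mgst2 (0.108).

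Fatty acid synthesis genes all had positive differences, but no member passed. All 15 were above zero (62.0% of all genes were), and 10 were higher without overlap (8.86% of all genes were). Every tested member was also above zero in the lists of T and NK cell, oxidative phosphorylation and unfolded protein response genes. The fatty acid synthesis median was 1.24 beside 0.06 for all genes. At 20 months it was 0.28 untreated and 0.55 in the mean of the comparisons. Leaving out the 2 libraries of least muscle RNA gave a median of 0.88. Fasn, the fatty acid synthase, was 643.62, 1090.04 and 1053.02 TPM against 224.21, 280.72 and 570.23 TPM (1.45 ± 0.55, limma adjusted p = 0.347). Acaca, which makes its malonyl-CoA substrate, was 164.84, 269.92 and 271.80 TPM against 47.81, 84.88 and 151.01 TPM (1.42 ± 0.46, limma adjusted p = 0.206). Slc25a1, which exports citrate from mitochondria to feed the pathway, came nearest at 65.69, 123.32 and 139.39 TPM against 37.01, 34.40 and 53.98 TPM (1.33 ± 0.33, limma adjusted p = 0.053).

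In Fasn and Acaca CYP19A1 mouse 1 was the lowest of its line and Esr1 mouse 3 the highest of the other, so the spread within each line was wide. Srebf1, the transcription factor that drives these genes, overlapped between the lines (0.47 ± 0.27), as did Scd1, the most abundant member (0.38 ± 0.57). White adipocyte marker genes mostly had positive but smaller differences: of 15 none passed, 14 were above zero and 3 were higher without overlap. Their median was 0.26, or 0.40 without the 2 libraries of least muscle RNA, and Adipoq and Lep were highest in Esr1 mouse 1. Among lipid genes outside the list, chosen after their values were seen, Aacs, which activates acetoacetate for lipid synthesis, was 25.93, 38.20 and 41.14 TPM against 8.42, 11.46 and 17.52 TPM. Aacs passed (1.45 ± 0.32, limma adjusted p = 0.0206), but not without any one of Esr1 mouse 1, Esr1 mouse 2, CYP19A1 mouse 2 and CYP19A1 mouse 3, with limma adjusted p up to 0.345 over the alternatives.

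**Figure D4:**
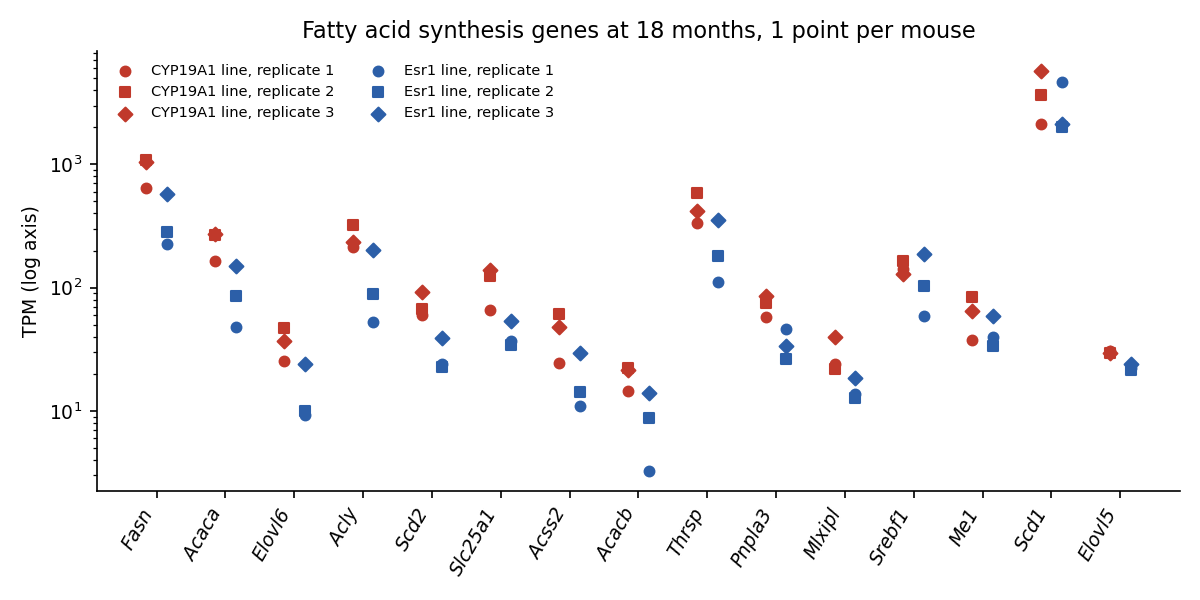
The 15 fatty acid synthesis genes at 18 months in TPM (log axis), 1 point per mouse, with the CYP19A1 line in red and the Esr1 line in blue and a marker shape for each replicate number. Esr1 replicate 3 (blue diamonds) lies nearest to the CYP19A1 points in most genes, and Scd1, Srebf1, Me1, Thrsp and Acss2 overlap between the lines.

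Milk protein genes varied widely within both lines. Csn2, beta-casein, was 1711.88, 5296.29 and 230.68 TPM against 1294.32, 7040.19 and 9033.66 TPM, with a difference of -1.76 ± 2.12. The lowest library of each line was again the one with the least muscle RNA. Of 16 luminal progenitor and alveolar genes none passed and 14 were below zero. H2-Eb1, an MHC class II beta chain, was 4.11, 33.41 and 4.01 TPM against 66.62, 64.15 and 50.38 TPM without overlap, but CYP19A1 mouse 2 stood apart and the gene did not pass (-2.67 ± 0.79, limma adjusted p = 0.14). Its partners H2-Aa and Cd74 overlapped. Across all 29 lists, 350 genes were tested, of which 3 were called higher (Ifi202b, Ifi208 and Gchfr) and 6 lower (Mndal, Ifi205, Ifi213, Kpna2, Cdsn and Thbd). In 24 lists no member passed.

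The share of genes that passed varied by gene class. Among protein-coding genes 126 of 13838 (0.911%) passed, against 55 of 1279 processed pseudogenes (4.3%) and 23 of 348 small nucleolar RNAs (6.61%). Rows with identical values, described below, were each counted, so the calls are not all separate observations. Small nucleolar RNAs guide chemical modification of ribosomal RNA, and 22 of the 23 were higher in the CYP19A1 line. Of the 23, 9 also passed in the mean of the 20-month comparisons. Calls in the class at 18 months numbered 8 (6 higher) without CYP19A1 mouse 1, 6 (all higher) without Esr1 mouse 3 and 13 without Esr1 mouse 1. Protein-coding calls numbered 79 without Esr1 mouse 2. The summed level of the class was 21645.6, 15765.0 and 14575.7 TPM in the CYP19A1 mice and 8506.58, 11411.7 and 7136.28 TPM in the Esr1 mice, without overlap. Small nuclear RNAs, the RNA parts of the spliceosome, summed to 39934.4, 31735.8 and 29259.1 TPM against 17951.8, 23691.6 and 14182.0 TPM. These RNAs are short and often lie inside host genes, so their TPM is uncertain, and whether library preparation plays a part was not tested.

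Ribosomal protein copies gave some of the most marked but least certain calls. Rpl35a was lower in the CYP19A1 line, at 182.39, 158.31 and 132.24 TPM against 291.10, 392.25 and 453.68 TPM. Its pseudogene Rpl35a-ps2 was higher, at 89.52, 75.23 and 63.00 TPM against 4.99, 3.65 and 4.34 TPM. Rps18 was lower (-1.53 ± 0.24, limma adjusted p = 0.000941) and Rpl34 higher (3.36 ± 0.63, limma adjusted p = 0.00639). Gm26825 and Rpl15-ps3, named after their values were seen, were listed at 0 in every CYP19A1 library and were 227.06, 286.88 and 333.46 TPM and 94.24, 73.83 and 85.51 TPM in the Esr1 libraries. Of 152 immunoglobulin variable segments 9 passed (5.92%), all higher, and 4 of them, Ighv1-69, Ighv1-76, Ighv1-81 and Ighv1-84, are neighbours. Ighv1-69 lost its call under 11 alternatives, Ighv1-84 under 10, Ighv1-81 under 6 and Ighv1-76 under 1. The calls in this class numbered 4 without CYP19A1 mouse 1, 3 without CYP19A1 mouse 2, 2 without Esr1 mouse 1 and 3 without Esr1 mouse 3. None of the 9 passed in the mean of the 20-month comparisons.

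The 20-month libraries share no sample with the 18-month ones and repeated most of the calls. Both ages were tested in the same limma fit, with a shared spread per gene, so their calls are not fully independent. For 256 of the 262 calls the mean of the 3 line differences at 20 months had the same sign, and 204 also passed there, which is 77.9% of the 18-month calls and 21.1% of the 969 at 20 months. Over all genes 5.01% passed in that mean. Taken singly, 5.27% of genes passed untreated, 1.01% under tamoxifen and 0.906% under letrozole. In the untreated Esr1 group at 20 months, ribosomal RNA took 31.3% of TPM in mouse 2 and 3.84% in mouse 3. It took 0.153 to 0.977% in the untreated CYP19A1 mice of that age. Esr1 mouse 2 there had 14595 genes at 1 TPM, and it enters the untreated comparison, the 20-month mean and both interactions. Its part in the untreated share was not tested. All 3 of these conditions repeated the call for 79 of the 262 genes, and none did for 73. Ifi202b ran from 20.73 to 27.37 TPM (median 25.85) in the 9 CYP19A1 libraries at 20 months and from 0.02 to 0.93 TPM (median 0.44) in the 9 Esr1 libraries. Kpna2 ran from 0.54 to 2.08 TPM (median 1.11) against 7.87 to 17.13 TPM (median 9.62), and Psmc3ip from 7.44 to 12.73 TPM (median 10.03) against 1.33 to 2.77 TPM (median 1.66). For these genes all 12 libraries of one line lay beyond all 12 of the other.

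Other genes separated the lines less clearly at 20 months, where the ranges pool untreated, tamoxifen and letrozole libraries. None of the genes in this paragraph passed the interaction test between the ages given below. Zfp973 stayed between 14.61 and 18.19 TPM (median 15.97) in the CYP19A1 line but reached 9.88 TPM in 1 Esr1 library at 20 months, where the median was 1.25. Thbd ran from 10.63 to 18.35 TPM (median 14.27) against 9.56 to 62.36 TPM (median 39.78), with overlap. Cilp ran from 8.73 to 15.40 TPM (median 13.75) in the CYP19A1 line at 20 months, above all 3 of its 18-month values, and did not pass there (-0.40 ± 0.18, limma adjusted p = 0.264). Klk1b22 had a median of 0 in both lines at 20 months. The 6 calls with the opposite sign at 20 months were Gm266, Cdc6, Gm10012, Igkv4-57, Gm10241 and Gm26287. Cdc6, a licensing factor of DNA replication, was 2.58, 1.85 and 1.49 TPM against 0.74, 0.86 and 1.01 TPM at 18 months (0.66 ± 0.16, limma adjusted p = 0.0482), and had a median of 0.48 TPM in both lines at 20 months. Its 18-month call was lost without any one library but CYP19A1 mouse 3.

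**Figure D5:**
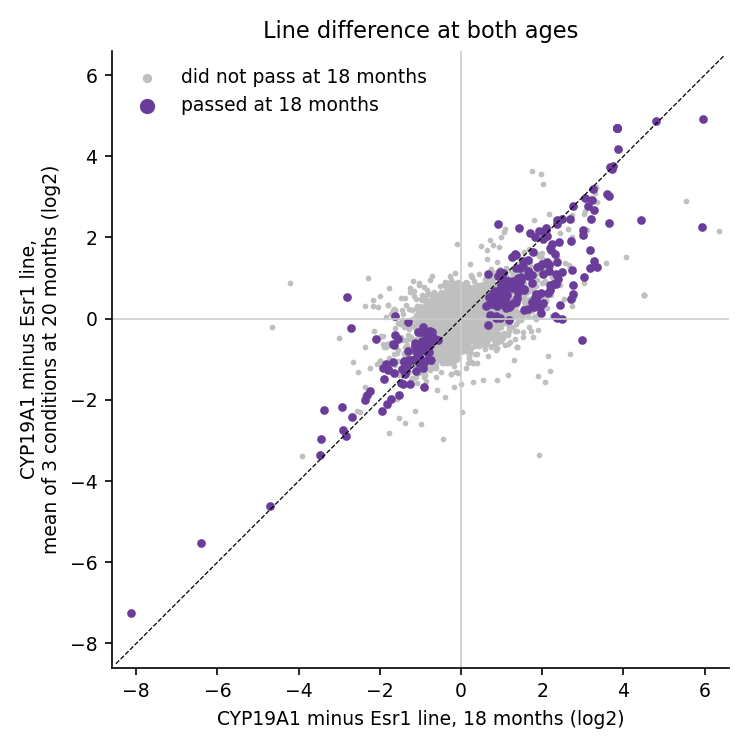
Difference between the lines (CYP19A1 minus Esr1, log2(TPM + 1)) at 18 months on the x axis and as the mean of the 3 conditions at 20 months on the y axis, 1 point per gene tested, with the 262 genes that passed at 18 months in purple and equality as a dashed line. 256 of the purple points have the same sign on both axes.

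The difference between the ages was tested directly as an interaction. Among the 262 genes 218 had a larger absolute difference at 18 months than in the 20-month mean, with medians of 1.48 and 0.93. The genes were chosen by their 18-month values, so that count is a description. Over all 19325 genes 2 passed the interaction (0.0103%) and 680 (3.52%) had an unadjusted p under 0.05. The 2 were Gstp-ps and Gm44340, and the next smallest limma adjusted p over all genes tested was 0.333. Against the untreated 20-month line difference alone, 1 gene passed the interaction (0.00517%), again Gstp-ps, and 8.55% had an unadjusted p under 0.05.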

How the data were processed

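Mammary gland RNA went into stranded libraries after removal of ribosomal RNA, with random priming, per the labels' protocols. The authors deposited 1 table of TPM values for 55487 genes and 24 samples, given to 2 decimals. RSEM 1.3.1, STAR 2.7.9a, Trim Galore 0.6.5 and FastQC 0.11.9, with the build mm10, are listed in the submitters' processing notes. What each did, and the gene annotation, is not stated in the labels. Because TPM holds no read totals, sample depth is unknown and counting intervals cannot be given.

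Groups came from the genotype and age labels. Values were taken as log2(TPM + 1) over the 19325 genes that reached 1 TPM in 3 or more samples. All 24 samples entered 1 limma 3.58.1 fit (R 4.3.3) of 8 groups, with 16 residual degrees of freedom and trend and robust moderation, which was tested on simulated data. The pooled fit assumes that all groups vary alike. Benjamini-Hochberg adjustment covered all genes tested, with calls under 0.05. The interaction compared the 18-month line difference with the mean of the 3 line differences at 20 months, and with the untreated one.

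The naming rule took Esr1, Cyp19a1 and Acta1, up to 15 genes each way with the largest called differences (mean of at least 2 TPM in the higher line, no overlap, no predicted, pseudogene, small RNA or immune receptor symbols), up to 4 members per list, and any called list member. The comparison, the 29 lists and the rule were chosen with earlier results of these data known. Of 384 list entries 381 were in the table. Gene positions and promoters are from RefSeq GRCm38.p6, and promoters were aligned with Biopython 1.88. Alternatives changed the pseudocount, filter, samples in the fit, scaling, muscle covariate, moderation, replicate block and libraries used.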

Additional observations from a re-analysis of the deposited data

Results flagged for a closer look

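The line difference differed between the ages, by the limma interaction test, in 2 genes against the mean of the 20-month comparisons and in 1 gene against the untreated 20-month comparison. Gstp-ps, a pseudogene of the glutathione transferase pi family, was 3.51, 2.81 and 2.72 TPM in the CYP19A1 line and 0.90, 1.52 and 1.02 TPM in the Esr1 line at 18 months. At 20 months it ran from 7.26 to 14.83 TPM in the CYP19A1 line and from 0.26 to 1.58 TPM in the Esr1 line. The interaction was -1.43 against the 20-month mean (limma adjusted p = 0.0434) and -1.86 against the untreated libraries. Gm44340 was 4.24, 8.19 and 4.86 TPM in the Esr1 libraries at 18 months and listed at 0 in the 3 CYP19A1 libraries, and had a median of 0 in both lines at 20 months. Its fitted interaction was -2.49 (limma adjusted p = 0.0434), a value that depends on the pseudocount. Both interactions against the 20-month mean lost their call when any of the 6 libraries was left out, with adjusted p up to 0.865 over 14 alternatives.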

How the results depend on the processing

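No call among the 262 reversed under any alternative that tested it, and 85 of them, 36 protein coding, passed under all 16. Fitting only the 6 libraries gave 144 calls (107 higher, 37 lower), where fewer residual degrees of freedom were left. Of the 262 calls 116 (44.3%) were kept there, the lowest share of any alternative. The lower calls numbered 145 with median-ratio scaling and 171 after rescaling without abundant RNAs and the muscle list, where 23964 genes were tested. Leaving out 1 library at a time gave 175 to 223 calls, with 109 to 165 higher and 55 to 104 lower. The cause of these shifts was not tested.

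Same-numbered libraries of the lines correlated at -0.31, 0.198 and -0.413 in their deviations from the group mean. CYP19A1 mouse 3 and Esr1 mouse 1, the 2 libraries of least muscle RNA, correlated at 0.553. Deviations within a group of 3 sum to zero, so these values cannot decide whether replicate numbers pair the mice. With the replicate block 176 genes passed at 18 months, 48 of them lower, 623 in the 20-month mean (969 without the block), 306 at 20 months untreated (1019 without it) and 0 in both interactions.

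In the 20-month comparisons used beside the results, median-ratio scaling gave 1674 calls in the mean and 2854 untreated, and the rescaled values 1788 and 2266. Untreated calls numbered 1962 with the muscle covariate and 1776 without the 2 libraries of least muscle RNA. One-library omissions gave 883 to 1053 calls in the mean and 863 to 1367 untreated.

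Interaction calls by limma, 2 against the mean and 1 against untreated with 680 and 1652 genes at an unadjusted p under 0.05, numbered 0 and 0 with a pseudocount of 0.1, and 11 and 8 with no filter. They numbered 1 and 3 after rescaling, 0 and 54 with the muscle covariate, and 0 and 24 without the 2 libraries of least muscle RNA. Median-ratio scaling gave 5 untreated. One-library omissions gave 0 to 6 and 0 to 47, both highest without CYP19A1 mouse 3. With 3 mice per line and no depth known, absence of a call does not show that levels were equal.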
